A study of Mus musculus with 6 samples.

Results

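The genes described here are 53 named genes of mouse chromosome 3, read in a metastasis-selected mammary tumour cell population and in the cells it came from. They were taken from a list whose label calls them raised together in the selected population, and each gene was read through its brightest probe set (mean log2 level over the arrays) among those annotated with that symbol alone. A mean signal of at least 100 over the 6 arrays was required. Of the 53 genes, 52 were measured in this way, out of 9361 genes of the whole array that met the same conditions. Dnajc19 was not, because its probe sets are annotated with a pseudogene as well. The label holds in part: 38 of the 52 genes had a higher mean in the selected cells and 14 had a lower one, and the median difference was 0.21 on a log2 scale. The list was chosen by its HML2 and parental values in these same 6 arrays, so the differences of its members are given as a description and are not tested.

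The study measured messenger RNA with 1 oligonucleotide array per culture. The selected population, E0771-HML2, descends from E0771, a mammary tumour line of C57BL/6 mice: E0771 cells were placed in the mammary fat pad of mice of the same strain, the cells that reached the lung were taken back into culture, and a second such passage gave HML2. It is compared with unselected parental E0771 cells. There were 3 arrays of HML2 and 3 of parental cells, called biological replicates in the labels, all from cells grown for 3 days in medium with 10% serum, with 15 ug of total RNA per sample. Whether different mice gave the 3 HML2 cultures is not stated in the labels, so the spread between arrays, and any p-value resting on it, may be that of parallel cultures. No animal tissue was measured, and 1 selected population was compared.

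Genes on one chromosome share a DNA molecule, but in general not a regulator: neighbouring genes usually carry their own promoters and respond to different factors. The listed genes serve many unrelated tasks, from the cap-binding step of protein synthesis (Eif4e) and the proteasome, which degrades proteins marked with ubiquitin (Psma5, Psmb4, Psmd4), to the small GTPase Nras, the lipid kinase Pik3ca and the nuclear lamina (Lmna). What they have in common by choice is the chromosome. The arrays measured RNA, and no measurement of DNA was used here.

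Upstream sequence is shown for 4 of the listed genes with differences of opposite sign, to set side by side the promoters of genes that share the chromosome. They are the 2 with the highest and the 2 with the lowest differences among the 32 listed genes for which RefSeq (GRCm38.p6) gives a single start. Each is the 250 bases before the start, and capitals mark the letters CCAAT (the CCAAT box) and GGGCGG (the GC box) on either strand. No marked stretches overlap. Bcl10 and Flad1 had higher mean signals in HML2 cells, for Flad1 with overlap between the groups.
Bcl10, chr3:145924012-145924261, plus strand: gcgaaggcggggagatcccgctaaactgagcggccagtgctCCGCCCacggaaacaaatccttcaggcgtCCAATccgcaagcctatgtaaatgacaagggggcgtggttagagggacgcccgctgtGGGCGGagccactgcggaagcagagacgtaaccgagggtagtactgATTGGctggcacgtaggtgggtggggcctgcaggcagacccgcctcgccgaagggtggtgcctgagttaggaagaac
Flad1, chr3:89411882-89412131, minus strand: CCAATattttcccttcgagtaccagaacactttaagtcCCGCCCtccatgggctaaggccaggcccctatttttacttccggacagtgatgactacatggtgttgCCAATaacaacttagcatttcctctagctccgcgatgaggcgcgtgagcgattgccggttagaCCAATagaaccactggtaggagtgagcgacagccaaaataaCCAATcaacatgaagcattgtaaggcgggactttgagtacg
Bdh2 and Mef2d had lower mean signals in HML2 cells, without overlap.
Bdh2, chr3:135280971-135281220, plus strand: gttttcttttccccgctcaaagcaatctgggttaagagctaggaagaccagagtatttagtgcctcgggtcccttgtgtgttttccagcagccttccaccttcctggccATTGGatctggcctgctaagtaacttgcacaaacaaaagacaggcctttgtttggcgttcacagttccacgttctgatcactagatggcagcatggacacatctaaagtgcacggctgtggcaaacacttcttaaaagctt
Mef2d, chr3:88142122-88142371, plus strand: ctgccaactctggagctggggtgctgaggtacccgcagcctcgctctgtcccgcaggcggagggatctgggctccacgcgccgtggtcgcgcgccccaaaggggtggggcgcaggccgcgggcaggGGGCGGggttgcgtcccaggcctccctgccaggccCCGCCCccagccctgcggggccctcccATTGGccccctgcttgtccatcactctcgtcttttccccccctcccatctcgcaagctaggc
The window of Bcl10 held 2 CCAAT and 2 GC boxes, that of Flad1 4 and 1, that of Bdh2 1 and 0, and that of Mef2d 1 and 2. Over the 47 listed genes with an entry, at the first start listed, 42.6% held CCAAT, against 37.0% of the 7696 tested genes with an entry and 34.5% of 27025 promoters in all. GGGCGG stood in 66.0% of the listed genes, in 62.8% of tested genes and in 32.9% of all promoters. TATAAA, the TATA box, was found on either strand in 8.51% of listed genes, 6.03% of tested genes and 12.97% of all promoters. CACGTG, the E box, was found in 10.6%, 9.005% and 6.05% of the same sets. The cAMP response element was found in 4.26%, 2.96% and 1.62%, searched as TGACGTCA. Pairs of C followed by G numbered 19 in the window of Bcl10, 12 in that of Flad1, 5 in that of Bdh2 and 19 in that of Mef2d, beside a median of 15 over the listed genes and 17 over tested genes. A match is a description of the letters only.

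The signals are linear array intensities, deposited with a trimmed mean of 500 on each array. A signal of 100 was reached by 39.7% to 41.6% of probe sets per array. Of the bacterial control probe sets only those named TrpnX were read, at 1.97 to 36.2, and they are the bacterial controls meant below. Among 8 epithelial marker genes 2 reached a mean of 100, Krt8 and Epcam, and the summed signal of the list was 3844 to 5132 in HML2 cells and 1327 to 1440.02 in parental cells. Krt8 made up most of that sum, with a mean of 4175 in HML2 and 1095 in parental cells. The means of Krt18 (86.0 and 34.2) and Krt5 (58.5 and 26.1) were also higher in HML2 cells, without overlap between the groups. The means of Epcam (83.5 and 133), Krt7, Krt19, Cdh1 and Krt14 were lower in HML2 cells. For Krt19, Cdh1 and Krt14 the means of both groups lay in the range of the bacterial controls. Krt5, Krt14, Krt18, Krt19, Krt7 and Cdh1 had means below 100 in both groups. Leukocyte genes had summed signals of 211 to 444 in HML2 and 390.02 to 421 in parental cells (2 of 6 reached 100), endothelial genes 252 to 357 and 79.2 to 167 (0 of 5; Icam2 alone had means of 177 and 6.39), lung epithelial genes 141 to 255 and 149.6 to 248 (1 of 5), fibroblast genes 1215 to 2162 and 2593 to 4563 (2 of 6) and adipocyte genes 52.95 to 83.6 and 41.7 to 81.7 (0 of 3). Pdgfra (means of 873 in HML2 and 1954 in parental cells) and Pdgfrb (592 and 1323, with overlap) made up most of the fibroblast sums. As a measure of RNA quality, the 3' signal of beta-actin over its 5' signal was 1.36 to 1.39 in HML2 and 1.41 to 1.53 in parental cells, and that of Gapdh 0.770 to 0.816 and 0.799 to 0.803. The part of these marker lists and of RNA quality in the values below was not tested.

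Most of the listed genes were slightly higher in HML2 cells, and the shift was small beside the differences among the genes. Relative to the parental mean, the median of the 52 genes was 0.11 on HML2 replicate 1, 0.28 on replicate 2 and 0.28 on replicate 3. On the parental arrays 1, 2 and 3 it was -0.03, 0.02 and 0.02. The numbers of genes above the parental mean were 30, 42 and 40 on the HML2 arrays, so replicate 1 carried the shift least. On all 9361 genes, by comparison, 48.2%, 50.7% and 48.5% were above it on these 3 arrays. Against the parental array of the same replicate number the counts were 31, 44 and 38. All differences here are HML2 minus parental on the scale log2(signal + 50), which understates the change of weak signals. The cultures were measured whole, so fewer cells of a kind and less RNA per cell cannot be told apart.

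In single genes the differences ran from -1.20 for Ppp3ca to 1.36 for Ubap2l. A total of 30 genes were above the parental mean on all 3 HML2 arrays, where 31.5% of all genes were. On none of these arrays were 8 listed genes above it, where 3147 of all 9361 genes were not either. The HML2 signals all lay above the parental signals for 20 genes (20.6% of all genes) and all below for 7 (23.8% of all genes), and for 25 genes the groups overlapped. In the limma fit over all genes (Benjamini-Hochberg adjusted p below 0.05), 10 listed genes passed as higher, where 12.3% of all genes did, and 4 as lower, where 14.9% did. That is 14 in either direction, where 27.2% of all genes passed. A gene past this threshold is termed called below. Nothing is read from these counts, since the contrast was used in choosing the list. The counts over all 9361 genes moved with the setting too, from 1155 higher and 1395 lower in the main fit. With the replicate number as a block 21 listed genes passed as higher and 5 as lower (all genes: 1670 and 1831). Without HML2 replicate 1 there were 18 and 5 (all genes: 1577 and 1845). Array weights gave 26 and 7 (all genes: 2422 and 2631). Without HML2 replicate 2 or 3, or parental replicate 1 or 3, 7 passed as higher and 2 as lower in each case. Over all genes these 4 settings gave 590 to 848 higher and 795 to 1058 lower. With each array centred on its median there were 14 higher and 3 lower (all genes: 1300 and 1233).

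**Figure D1:**
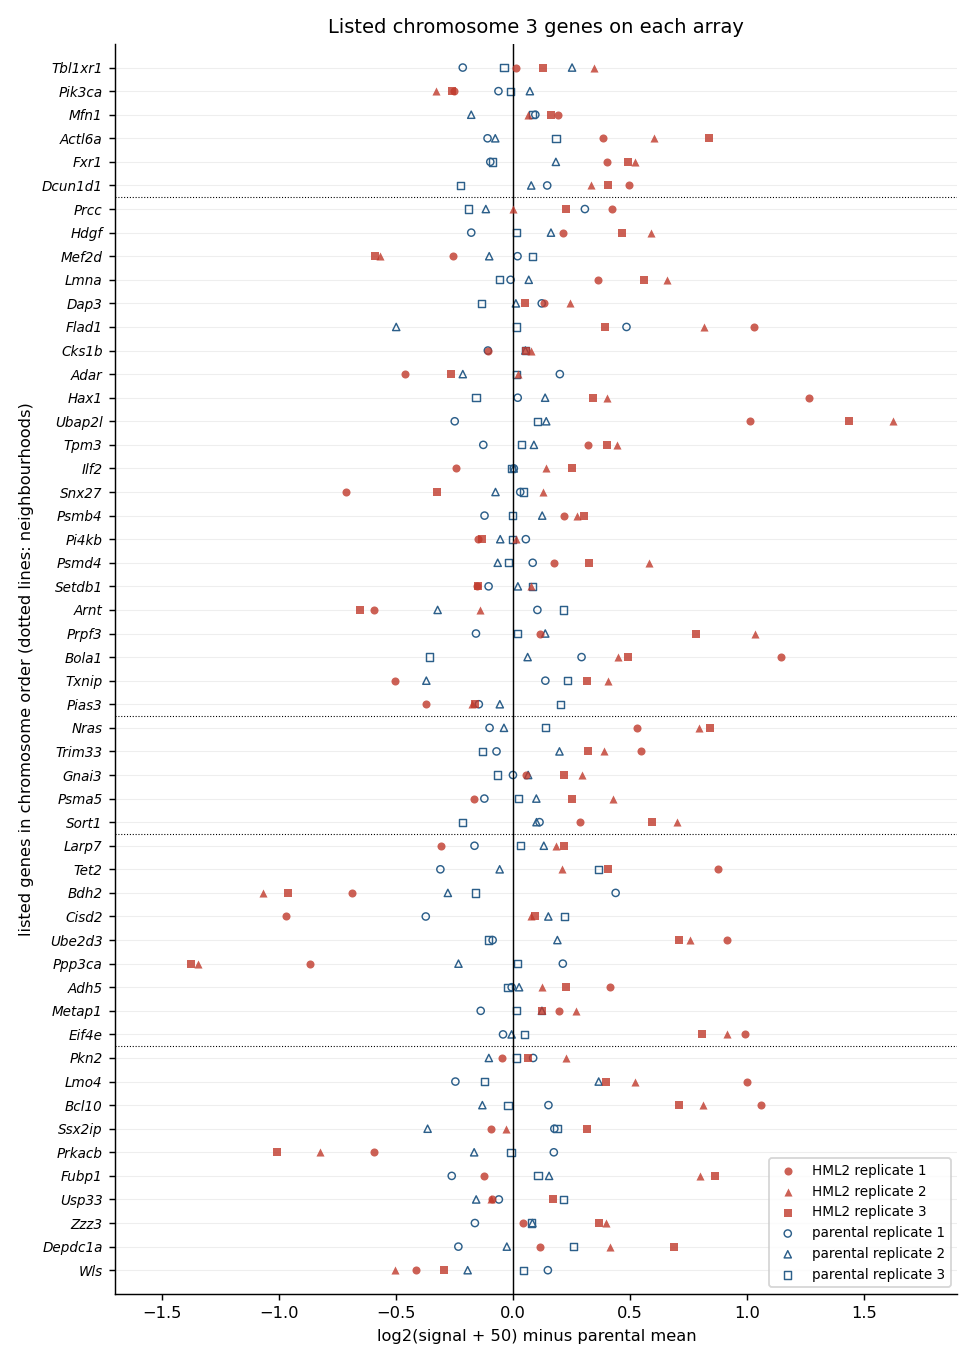
Each row is 1 of the 52 listed genes in chromosome order, and each point is 1 array: its log2(signal + 50) minus the mean of the 3 parental arrays, filled red for HML2 and open blue for parental cells. Most HML2 points lie right of 0, with medians of 0.11, 0.28 and 0.28 by array, while 8 genes, among them Ppp3ca, Bdh2 and Prkacb, have all HML2 points left of it. Of all 9361 genes, 3147 were above the parental mean on no HML2 array.

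Of the genes of RNA handling and translation 9 of 10 were above 0, with a median of 0.21. Ubap2l, an RNA-associated protein of stress granules, had the largest difference of the list. Its signals were 1725, 2662 and 2332 in HML2 cells, against 689.8, 920.2 and 896 in parental cells, a difference of 1.36 ± 0.19 (SE, here and below). All HML2 values exceeded the parental ones. Eif4e, which binds the cap of messenger RNA and starts translation, read 7582, 7183 and 6669 in HML2 cells, against 3672, 3768 and 3914 in parental cells. The difference of 0.91 ± 0.10 came with little spread in either group, and the groups were far apart. Fxr1, an RNA-binding relative of the fragile X protein, had signals of 4496, 4894 and 4792 in HML2 cells, against 3167, 3857 and 3190.3 in parental cells (0.47 ± 0.12), again without overlap.

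The other genes of this group differed less or varied more between arrays. The splicing factor gene Prpf3 read 857, 1668 and 1393 in HML2 cells, against 701, 872 and 799.7 in parental cells. Its HML2 arrays disagreed: replicate 1 lay within the parental range and both others well above it, so that the difference of 0.64 ± 0.23 was 0.91 without that array. Prcc differed by 0.22, Metap1, which removes the first methionine of new proteins, by 0.20, and the mitochondrial ribosomal gene Dap3 by 0.14. Ilf2 (0.050) and Larp7 (0.032), which binds the 7SK small nuclear RNA, lay near 0. The adenosine deaminase gene Adar, whose product edits double-stranded RNA, was the exception, with 369.8, 537 and 431 in HML2 cells, against 614, 448 and 533 in parental cells. That is a difference of -0.23 ± 0.18, and the groups overlapped. The other Adar probe sets past the signal limit differed by 0.59 and 0.23, so its sign depended on the probe set taken.

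In the ubiquitin and proteasome group 5 of 6 genes were above 0, with a median of 0.31. Ube2d3, a ubiquitin-conjugating enzyme, stood out with 15176, 13581 and 13167 in HML2 cells, against 7555, 9163 and 7469 in parental cells (0.79 ± 0.11). No HML2 array came near the parental values. The proteasome subunit genes were closer together. Psmb4 of the catalytic core read 13258, 13780.5 and 14096 in HML2 cells, against 10479, 12441 and 11377 in parental cells, a difference of 0.26 ± 0.095. Psmd4, the ubiquitin receptor of the regulatory particle, read 6154, 8186 and 6842 in HML2 cells, against 5781, 5207 and 5378 in parental cells (0.36 ± 0.13). Both were separated between groups by a narrow gap. The core gene Psma5 had a difference of 0.17 ± 0.15 and overlapped. Dcun1d1, which promotes the attachment of NEDD8 to cullins, had signals of 645, 572 and 604 in HML2 cells, against 496, 471 and 372 in parental cells (0.41 ± 0.15), without overlap. The deubiquitinase gene Usp33 had a difference of -0.0050 ± 0.15, with overlap.

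Of the transcription and chromatin genes 8 of 12 were above 0 and 4 below, with a median of 0.35. By HML2 array the medians of this group were 0.029, 0.37 and 0.35. Actl6a, an actin-like subunit of chromatin remodelling complexes, read 3451, 4016 and 4734 in HML2 cells, against 2435, 2492 and 2994 in parental cells (0.61 ± 0.15). Lmo4, a LIM-domain cofactor, read 1647, 1168 and 1066 in HML2 cells, against 664, 1042 and 729 in parental cells (0.64 ± 0.21). In both genes the groups did not overlap, though HML2 replicate 3 was highest for Actl6a and replicate 1 for Lmo4. Fubp1, which binds a single-stranded element upstream of Myc, had 1019, 1979.97 and 2069 in HML2 cells, against 922, 1247 and 1205 in parental cells. Replicate 1 of HML2 fell among the parental arrays, and the difference was 0.51 ± 0.26 with it and 0.83 without it.

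Trim33, a ubiquitin ligase that acts on Smad4, had 3045, 2725 and 2596 in HML2 cells, against 1967, 2381 and 1887 in parental cells, a difference of 0.42 ± 0.13. Hdgf differed by 0.42 ± 0.14 and also did not overlap. The DNA demethylation enzyme gene Tet2 (0.50), Zzz3 (0.27) and the corepressor gene Tbl1xr1 (0.16) overlapped. On the low side, Mef2d, a MADS-box transcription factor of muscle and neurons, read 993, 788 and 777 in HML2 cells, against 1212, 1110.05 and 1267 in parental cells (-0.47 ± 0.14), with every HML2 array below the parental ones. Arnt, the partner of the hypoxia-inducible factors, read 809, 1126 and 773 in HML2 cells, against 1342, 986 and 1456 in parental cells (-0.46 ± 0.20), and HML2 replicate 2 exceeded a parental array. Pias3, an inhibitor of STAT3 signalling, differed by -0.24, and the histone methyltransferase gene Setdb1 by -0.076.

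Signalling genes were the group that least followed the label: 4 of 9 were above 0, 5 were below, and the median was -0.09. By HML2 array their medians were -0.15, 0.013 and -0.13. Nras, a small GTPase upstream of the MAP kinase cascade, had signals of 3098, 3742 and 3861 in HML2 cells, against 1986, 2075 and 2352 in parental cells, a difference of 0.72 ± 0.13. Bcl10, an adaptor that links surface receptors to NF-kB, had 5502, 4627 and 4305 in HML2 cells, against 2907, 2382 and 2574 in parental cells (0.86 ± 0.13). Both were clearly separated between groups. The G protein gene Gnai3 (0.19) and the kinase gene Pkn2 (0.081) were slightly above 0 with overlap.

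The largest decrease of the list was in Ppp3ca, the catalytic subunit of the calcium-dependent phosphatase calcineurin. It read 1975, 1405 and 1372 in HML2 cells, against 4232, 3094 and 3695 in parental cells, a difference of -1.20 ± 0.18. Prkacb, a catalytic subunit of cyclic AMP-dependent protein kinase, read 1629.9, 1379 and 1209.7 in HML2 cells, against 2809.5, 2208 and 2468 in parental cells (-0.81 ± 0.15). Neither gene showed any overlap, and each stands on the chromosome near genes with higher signals in HML2 cells, Ppp3ca near Ube2d3 and Eif4e, Prkacb near Bcl10. Wls, which carries Wnt proteins to the cell surface, had 2206, 2069 and 2400.4 in HML2 cells, against 3285, 2579 and 3051 in parental cells (-0.41 ± 0.13). Pik3ca, the catalytic subunit of phosphatidylinositol 3-kinase alpha, had 1351, 1280.4 and 1345 in HML2 cells, against 1549, 1705 and 1608 in parental cells (-0.28 ± 0.12). Its HML2 arrays were tightly grouped and all below the parental ones. Another lipid kinase gene, Pi4kb, differed by -0.090.

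**Figure D2:**
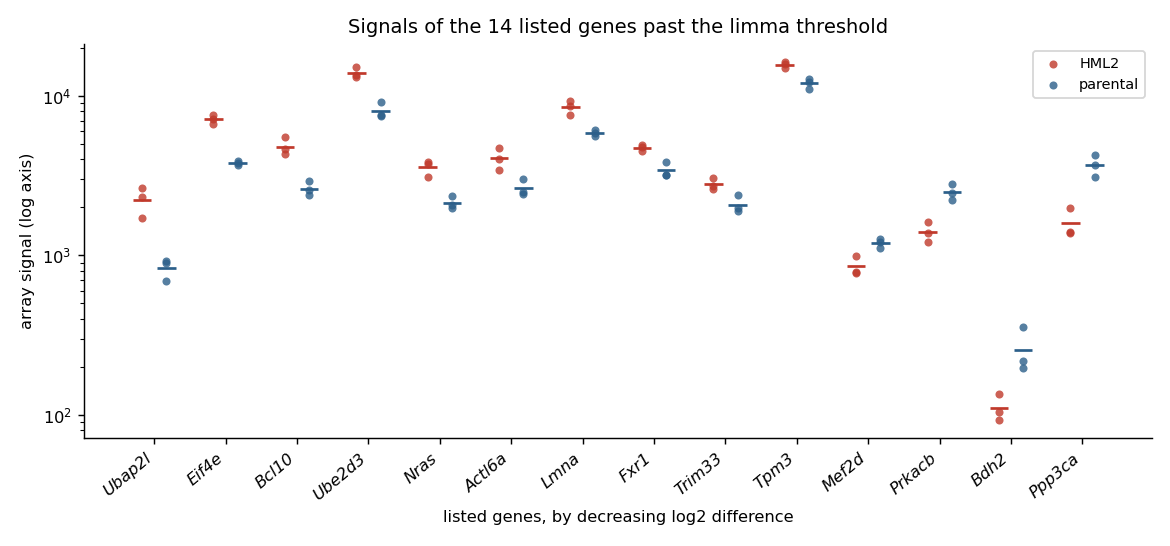
Array signal on a log axis for the 14 listed genes past the limma threshold, ordered from Ubap2l (difference 1.36) to Ppp3ca (-1.20). Each point is 1 array, red on the left for HML2 and blue on the right for parental cells, and the short lines are means of 3; in all 14 the groups do not overlap.

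Among genes of mitochondria and metabolism 6 of 8 measured members were above 0, and the median was 0.20. Hax1, an anti-apoptotic protein of mitochondria, read 20569, 11291 and 10834 in HML2 cells, against 8660.3, 9397 and 7648 in parental cells. Replicate 1 of HML2 was far above the others, and the difference of 0.67 ± 0.23 was 0.37 without it. Bola1, a mitochondrial protein of iron-sulfur cluster assembly, read 561, 327 and 339 in HML2 cells, against 288, 238 and 166 in parental cells (0.70 ± 0.24; 0.47 without HML2 replicate 1). Flad1, which makes flavin adenine dinucleotide, read 367, 309.8 and 218 in HML2 cells, against 236, 94.6 and 156 in parental cells, a difference of 0.75 ± 0.28 in which the groups overlapped. Adh5, which clears formaldehyde, had 10003, 8160.2 and 8763 in HML2 cells, against 7457, 7624 and 7378 in parental cells (0.26 ± 0.10), a small gap with no overlap.

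The fusion gene Mfn1 (0.14) and Txnip (0.073), the thioredoxin-binding protein that responds to glucose, were close to 0. For Txnip the signals were 176, 376 and 350.2 in HML2 cells, against 303, 198 and 327 in parental cells, and the groups overlapped. Cisd2, an iron-sulfur protein of the endoplasmic reticulum and mitochondria, read 506, 1102 and 1114 in HML2 cells, against 792, 1161 and 1221 in parental cells. Replicate 1 was the lowest array in both groups, and the difference was -0.27 ± 0.30. Bdh2, a short-chain dehydrogenase, read 136, 92.6 and 104 in HML2 cells, against 356, 197 and 218 in parental cells (-0.91 ± 0.23), all HML2 arrays below the parental ones. Of the probe sets shared by Dnajc19 and its pseudogene, the brightest read 1750, 1842 and 1960 in HML2 cells, against 1197, 1332 and 1180.0 in parental cells. The gene and the pseudogene cannot be told apart in those signals.

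Of the 7 genes for the cytoskeleton, cell division and trafficking 6 were above 0, and the median was 0.39. By HML2 array the medians were 0.11, 0.415 and 0.40. Lmna, which encodes lamins A and C of the nuclear envelope, read 7542, 9272 and 8654 in HML2 cells, against 5815, 6139.7 and 5626 in parental cells (0.53 ± 0.11). Tpm3, a tropomyosin that coats actin filaments, read 14982, 16323 and 15841 in HML2 cells, against 10966, 12748 and 12293 in parental cells (0.39 ± 0.094). Sort1, a sorting receptor of the trans-Golgi network, was the weakest measured member, with 143, 207 and 188 in HML2 cells, against 121, 119 and 86.1 in parental cells (0.53 ± 0.20). These 3 genes had no overlap between groups. Sort1 had a mean signal of 144 over the arrays, the lowest of the list, and no listed gene with a probe set of its own fell under the limit of 100.

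Depdc1a, a gene of mitosis, differed by 0.41 with overlap. Cks1b, a partner of cyclin-dependent kinases, read 18111, 20569 and 20310.5 in HML2 cells, against 18116, 20253 and 20264 in parental cells. Same-numbered arrays were close to each other, and the difference was 0.0084 ± 0.091. Ssx2ip, a centrosomal protein, differed by 0.065. Snx27, a sorting nexin that returns receptors to the surface, read 391, 740.2 and 528 in HML2 cells, against 689.5, 637 and 696 in parental cells (-0.30 ± 0.21), and HML2 replicate 2 exceeded all parental arrays while replicate 1 was far below them.

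The calls of Bcl10, Eif4e, Nras, Ppp3ca and Prkacb held under all 16 alternatives tried. The other 9 were lost under at least 1. Mef2d and Trim33 were each still called under 7 of the 16, Fxr1 and Tpm3 under 11, Actl6a under 12, Bdh2 under 10 of 15, and Lmna, Ubap2l and Ube2d3 under 15 of 16. For Actl6a, Bdh2, Fxr1, Mef2d, Tpm3 and Trim33 leaving out HML2 replicate 3 or parental replicate 1 was among the alternatives that ended the call. Averaging a gene's probe sets in place of taking the brightest ended the calls of Actl6a, Fxr1, Lmna, Mef2d, Trim33, Ubap2l and Ube2d3. With that average the difference was 0.19 for Ubap2l, 0.32 for Ube2d3, 0.19 for Trim33 and -0.23 for Mef2d, and for Eif4e, whose call held, 0.53. Several probe sets passed the signal limit for 35 of the 52 genes, and in 12 of these at least 1 had the opposite sign to the one that represents the gene, a share of 34.3% against 33.2% for all genes with several.

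Lmna changed sign with the choice. Its other probe sets differed by -0.26, -0.04 and -0.63, against 0.53 for the brightest, and the average of all 4 was -0.10. For Ubap2l the other values were -0.62, 0.33 and -0.30 against 1.36. In Ube2d3 the 7 probe sets ran from -0.12 to 0.81. Fubp1, Fxr1, Tbl1xr1, Adar, Cisd2, Mef2d, Snx27, Ssx2ip and Trim33 also had at least 1 probe set of opposite sign. In contrast, the 3 probe sets of Ppp3ca gave -1.20, -1.41 and -1.21, the 3 of Nras 0.63, 1.41 and 0.72, and the 5 of Pik3ca all lay between -0.37 and -0.12. Over all 121 passing probe sets of the list 85 were above 0.

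The listed genes lie in several neighbourhoods of the chromosome, and the median over the mean of the HML2 arrays was above 0 in each. In chromosome order, the 6 from Tbl1xr1 to Dcun1d1 had a median of 0.29 with 5 above 0. The 22 from Prcc to Pias3 had a median of 0.18 with 15 above 0, the 5 from Nras to Sort1 a median of 0.42 with all 5 above 0, the 9 from Larp7 to Eif4e a median of 0.20 with 6 above 0, and the 10 from Pkn2 to Wls a median of 0.18 with 7 above 0. On HML2 replicate 1 alone the last of these groups had a median of -0.068, with 4 of 10 genes above 0, and the other groups had medians of 0.12 to 0.29. Opposite directions occurred within a neighbourhood, as for Ppp3ca and Eif4e or Prkacb and Bcl10. The other tested genes lying between the same end genes had medians of 0.20 (17 genes), 0.07 (102), 0.30 (32), 0.31 (29) and 0.44 (25) in that order.

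Read along the whole chromosome, the median difference was above 0 in 8 of 9 consecutive runs of 50 genes. The last of the 451 tested genes, Wls, lies beyond these runs. The share of genes above 0 was 70.0% in the first run, Pex2 to Ccna2, and 64.0%, 60.0% and 62.0% in the next ones. It was lowest, 48.0% with a median of -0.047, in the run from 4933434E20Rik to Tars2, which holds Tpm3, Ilf2, Snx27, Psmb4, Pi4kb, Psmd4, Setdb1 and Arnt. Beyond it the share was 64.0%, 70.0%, 62.0% and 70.0%, with medians between 0.26 and 0.30. A running median over 25 genes was above 0 in 384 of 427 windows, lowest at -0.13 around Tuft1 and highest at 0.51 around Ttll7.

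**Figure D3:**
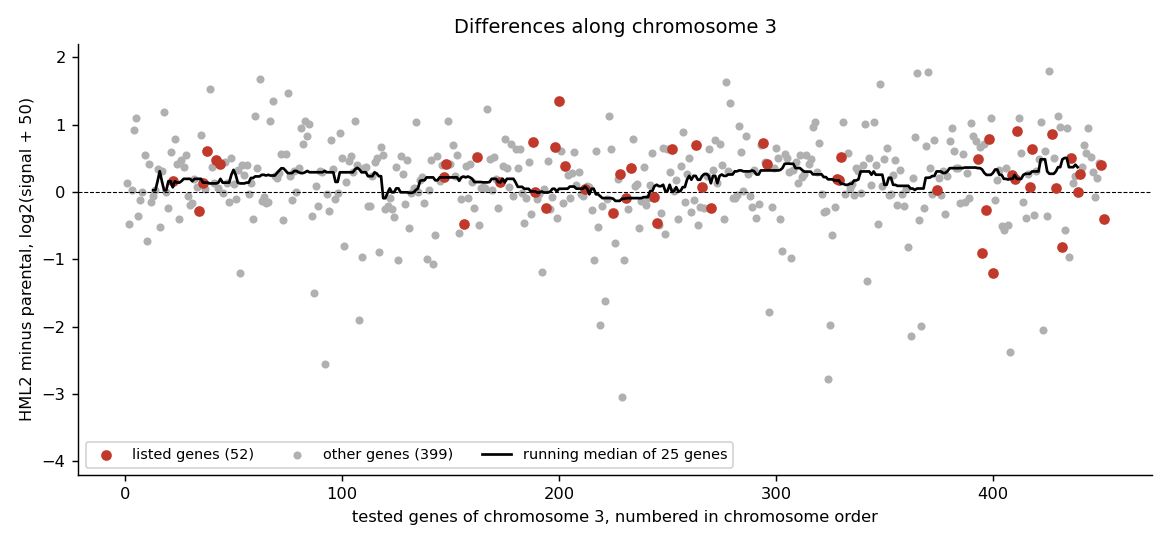
HML2 minus parental difference of each of the 451 tested genes of chromosome 3, numbered in chromosome order on the horizontal axis; red points are the 52 listed genes, grey points the other 399, and the black line is the running median of 25 genes. The line stays above 0 in 384 of 427 windows and dips to -0.13 near the middle, while single genes scatter from -3.05 to 1.79.

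The values of the list were close to those of the rest of its chromosome, and the difference between them was not tested. The 399 other tested genes had a median of 0.20, with 61.9% above 0, next to 0.21 and 73.1% for the list. Their medians on the 3 HML2 arrays were 0.19, 0.16 and 0.19, more even than those of the list. They passed the fit as higher in 25.1% of cases and as lower in 8.77%, next to 19.2% and 7.69% of the list. Since the chromosome was singled out on this contrast, these shares are descriptions. They depend on the signal limit: with no limit on mean signal the median of all chromosome 3 genes was 0.029, next to 0.20 with it, and 54.8% were above 0. Without that limit the whole array had a median of -0.023, with 46.9% above 0.

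Several unlisted genes of the chromosome had larger differences than any listed gene, in both directions. The 10 largest increases that passed the fit without overlap were Ddah1 (1.79), Prss12 (1.78), Bcar3 (1.76), Larp1b (1.68), Chd1l (1.64), Cdc14a (1.61), Mrpl47 (1.53), Mgst2 (1.48), Noct (1.36) and Pde4dip (1.32). Ddah1, which breaks down methylated arginines, read 1104, 1412 and 1129 in HML2 cells, against 267, 396 and 289 in parental cells. Mrpl47, a mitochondrial ribosomal protein gene that lies next to Actl6a, read 3779.7, 3911 and 3701 in HML2 cells, against 1169, 1445 and 1258 in parental cells. Both were far apart between groups. Prss12 and Cdc14a had parental means of 34.5 and 69.03 and met the signal limit through the HML2 arrays alone. For Prss12, 2 parental signals lay in the range of the bacterial controls, so the size and rank of its difference are uncertain.

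The 10 largest decreases that passed the fit without overlap were Selenbp1 (-3.05), Gstm2 (-2.78), Pfn2 (-2.55), Adh1 (-2.38), Arhgap29 (-2.14), Col24a1 (-2.05), Synpo2 (-1.99), S100a4 (-1.98), Gstm1 (-1.97) and Shox2 (-1.90). Pfn2, an actin-binding profilin, read 368, 279.9 and 277 in HML2 cells, against 1801, 2012 and 2344 in parental cells. Adh1, an alcohol dehydrogenase gene next to the listed Adh5, read 20.9, 5.20 and 12.5 in HML2 cells, against 272, 275 and 277 in parental cells, while the signals of Adh5 were higher than in parental cells. Adh1, Synpo2 and Gstm2 had HML2 means of 12.9, 21.3 and 82.6 and met the signal limit through the parental arrays alone. All HML2 signals of Adh1 and Synpo2 lay in the range of the bacterial controls. Selenbp1 read 241, 31.7 and 31.3 in HML2 cells, against 1595, 604 and 967 in parental cells, so that 2 of its 3 HML2 signals lay in that range too. The sizes and the order of these 4 differences are therefore uncertain. Gstm1 and Gstm2, glutathione transferase genes of the mu class, are alike in sequence, and whether their probe sets share signal was not tested. S100a4, a calcium-binding protein gene, read 2193, 3484 and 3427 in HML2 cells, against 16102, 9491 and 10883 in parental cells. For Pfn2, Adh1 and S100a4 every HML2 signal was far below the parental ones.

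Chromosomes 3 and 12 had the highest medians and shares above 0, and their order depended on the measure and, for the medians, on the array. Chromosome 3 had 63.2% above 0 and a median of 0.20, and the 332 tested genes of chromosome 12 had 63.3% and 0.15. By HML2 array the shares were 63.9%, 65.6% and 63.0% on chromosome 3 and 63.9%, 60.5% and 61.7% on chromosome 12. The medians were 0.18, 0.17 and 0.19 on chromosome 3 and 0.19, 0.11 and 0.14 on chromosome 12. Chromosome 6 followed with 59.0% and 0.09. Over all genes 48.3% were above 0, with a median of -0.019. The lowest shares were 14.2% on chromosome 16 and 22.3% on chromosome 1, with medians of -0.42 and -0.32, so the median of chromosome 3 lay closer to 0 than either of these. The share that passed the fit as higher was 24.4% on chromosome 3 and 24.4% on chromosome 12.

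**Figure D4:**
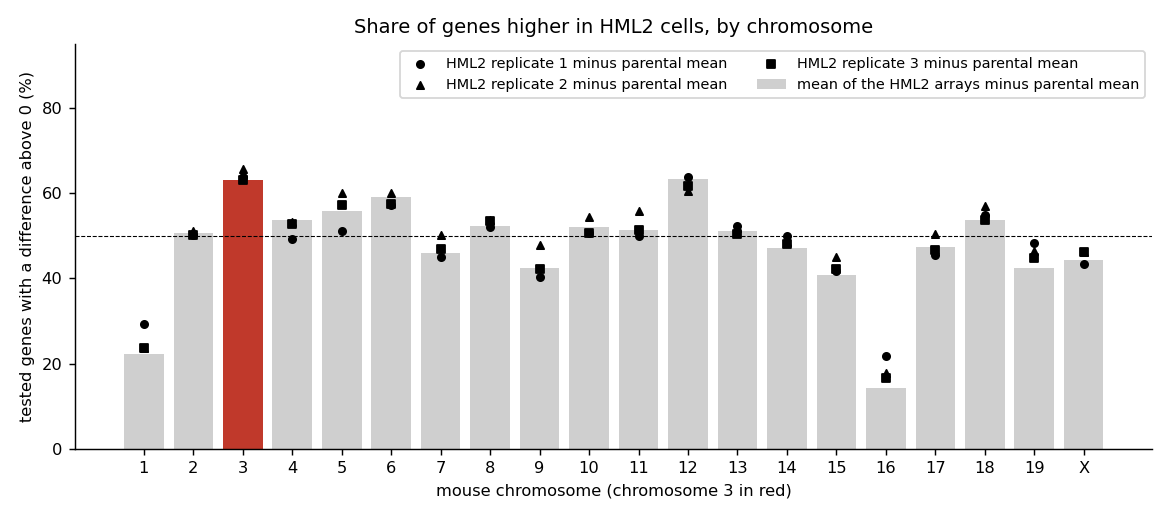
Share of tested genes, in percent, with a difference above 0, by mouse chromosome. Bars use the mean of the 3 HML2 arrays minus the parental mean, points each HML2 array, and the dashed line marks 50%; chromosomes 3 and 12 reach 63.2% and 63.3%, chromosome 16 14.2%.

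Genes that work with listed genes but lie on other chromosomes were compared through the same fit. They took no part in the choice of the list, but the partner lists themselves were chosen with earlier results of these data known. Of 138 such partner genes tested, 13 were higher and 8 lower, and their median difference was 0.010. That is 9.42% and 5.80%, beside 12.3% and 14.9% of all genes. At an unadjusted p below 0.05, 18.3% of all genes were higher and 20.9% lower, the background for the unadjusted counts given with each list. Under the alternatives the counts over all 9361 genes, 1155 higher and 1395 lower in the main fit, moved as well. Blocking on the replicate number gave 25 higher and 19 lower partner genes (all genes: 1670 and 1831). Without parental replicate 3 there were 6 and 5 (all genes: 590 and 795). Without HML2 replicate 1 there were 22 and 13 (all genes: 1577 and 1845), and without parental replicate 1 there were 5 lower (all genes: 948). Array weights gave 39 higher and 25 lower (all genes: 2422 and 2631), and averaged probe sets 7 higher (all genes: 1092).

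Of 33 proteasome genes elsewhere in the genome, 5 were higher and 0 lower by limma after adjustment (9 and 0 at an unadjusted p below 0.05), and 28 did not pass. Their median difference was 0.14 and 26 were above 0, where 48.3% of all genes were. On the HML2 arrays 19, 28 and 27 of the 33 were above the parental mean, and on the parental arrays 9, 26 and 12, so that parental replicate 2 was as often above it as the HML2 mean. The ATPase gene Psmc1 had signals of 3884, 4406 and 4751 in HML2 cells, against 2315, 2679 and 2512 in parental cells, a difference of 0.78 ± 0.12 (limma adjusted p = 0.0027). Psmd9 (0.74, adjusted p = 0.008) and Psmd7 (0.63, adjusted p = 0.019) were also higher, and the call of Psmd7 was lost without HML2 replicate 2, parental replicate 1 or parental replicate 3. Among cullin and NEDD8 genes 1 of 13 was higher and 1 lower (2 and 1 at an unadjusted p below 0.05). Nae1, a subunit of the enzyme that activates NEDD8, had 7014, 5629 and 6879 in HML2 cells, against 3729, 3241 and 3521 in parental cells (0.88 ± 0.12; adjusted p = 0.0016). Cul4a was lower (-0.44, adjusted p = 0.049), a call lost under 9 of the 16 alternatives.

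For translation initiation, 2 of 13 partners of Eif4e were higher and 0 lower in the limma fit (5 and 2 at an unadjusted p below 0.05). They were the genes of its own inhibitors, Eif4ebp1 with 19245, 12912 and 12631 in HML2 cells, against 10021, 10119 and 9116 in parental cells (0.59 ± 0.16; limma adjusted p = 0.028) and Eif4ebp2 (0.63, adjusted p = 0.019). The call of Eif4ebp1 was lost without any one parental array or without the signal limit. That of Eif4ebp2 was lost without parental replicate 2 or 3, without HML2 replicate 2 or 3, or with its probe sets averaged.

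In the Ras and PI3-kinase list 1 of 16 genes was higher and 3 were lower (2 and 3 at an unadjusted p below 0.05). Among them were regulatory subunit genes that pair with Pik3ca. Pik3r3, counted as lower, had 7.95, 33.2 and 7.31 in HML2 cells, against 501, 326 and 445 in parental cells. Its HML2 signals lay in the range of the bacterial controls and it met the signal limit through the parental arrays alone, so no size or p is given for it. By limma, Pik3r2 was lower (-0.57, adjusted p = 0.021) and Pik3r1 higher (0.53, adjusted p = 0.037), and Sos1, outside the naming rule, was lower as well (-0.49, adjusted p = 0.020). The calls of Pik3r1 and Pik3r2 were both lost without HML2 replicate 3, parental replicate 1 or parental replicate 3.

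For protein kinase A, calcineurin and G proteins 1 of 12 genes was higher and 1 lower (also 1 and 1 at an unadjusted p below 0.05). Prkaca, the other main catalytic subunit gene beside Prkacb, had 2230.4, 2129.9 and 2357 in HML2 cells, against 5102, 3964 and 5449 in parental cells (-1.08 ± 0.14; limma adjusted p = 0.0012), and the regulatory subunit gene Prkar1a had 6669, 6957 and 7842 in HML2 cells, against 4371, 4536 and 4770.2 in parental cells (0.64 ± 0.11; adjusted p = 0.0034). The call of Prkar1a was lost when its probe sets were averaged. Both catalytic subunit genes thus had lower signals in HML2 cells, on different chromosomes.

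Chromatin partners had 0 higher and 1 lower of 29 by limma (1 and 6 at an unadjusted p below 0.05). Of the 29, 7 were above 0, where 48.3% of all genes were. On the HML2 arrays 6, 17 and 11 were above the parental mean, and on the parental arrays 9, 21 and 13. The lower gene was Smarcd3 (-1.42, limma adjusted p = 0.0026), while Trim28, a partner of Setdb1, did not pass (-0.067, adjusted p = 0.84). Of 9 lamina and tropomyosin genes 0 were higher and 2 lower (also 0 and 2 at an unadjusted p below 0.05). Tpm2 had 4521, 3599 and 2744 in HML2 cells, against 7632, 10704 and 10224 in parental cells (-1.40 ± 0.20; adjusted p = 0.0017), opposite in sign to Tpm3, and the lamin-binding protein gene Emd differed by -0.73 (adjusted p = 0.0039). Of 13 mitochondrial partners 3 were higher and 0 lower (4 and 0 at an unadjusted p below 0.05). Cisd1, a relative of Cisd2, differed by 0.57 (adjusted p = 0.011), the mitochondrial ribosomal gene Mrps5 by 0.55 (adjusted p = 0.016) and the chaperone gene Hspa9 by 0.50 (adjusted p = 0.036). Each of these last 3 calls was lost when probe sets were averaged or when parental replicate 3 was left out.

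**Figure D5:**
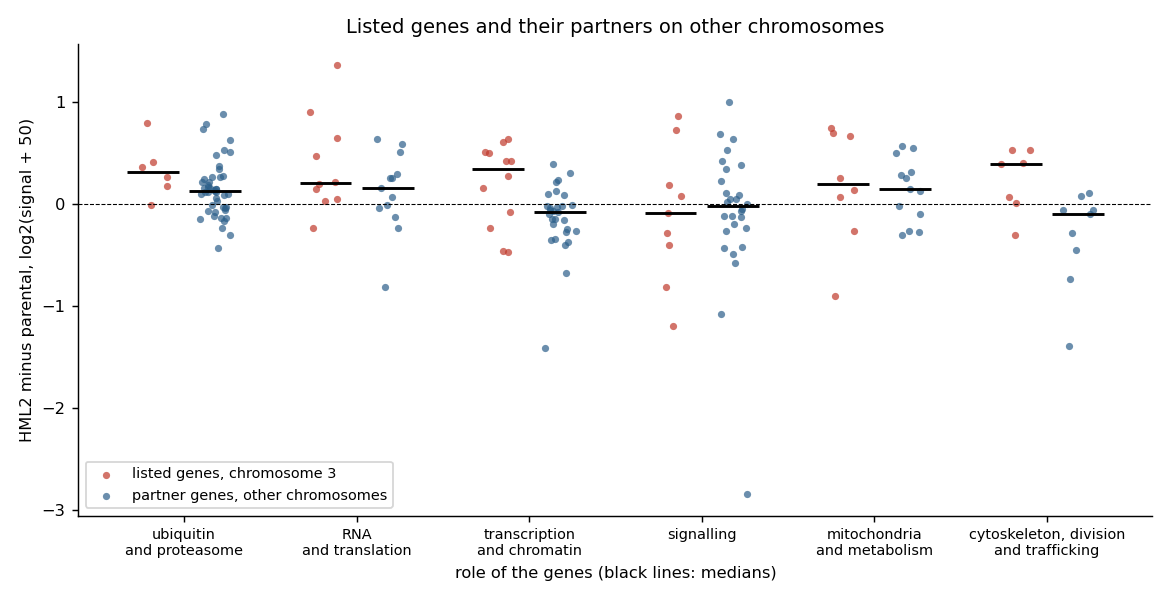
HML2 minus parental differences, log2(signal + 50), of the listed genes by role (red, left) and of partner genes on other chromosomes (blue, right); each point is 1 gene and black lines are medians. Listed transcription and cytoskeleton genes have medians of 0.35 and 0.39, and listed signalling genes a median of -0.09. On HML2 replicate 1 alone these medians are 0.029, 0.11 and -0.15. The lowest partner gene is Pik3r3, whose HML2 signals lie in the range of the bacterial controls.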

How the data were processed

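Total RNA of 3 HML2 and 3 parental cultures was hybridised to Affymetrix Mouse Genome 430 2.0 arrays. Each probe set has 1 deposited linear intensity per culture. Per the submitters' processing notes the authors computed these intensities with MAS5, whose version is not given in the sources used here. Scaling to a common trimmed mean removes any difference in total messenger RNA. Of 45101 probe sets, 34945 had 1 gene symbol in the platform annotation, 932 several and 9160 none; 34884 were found in the RefSeq gene table (GRCm38.p6), which gave current names, chromosomes and gene order. No build is named for the array values, so the only coordinates printed are those of the RefSeq promoters.

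Signals were taken as log2(signal + 50). Genes needed a mean signal of at least 100 and were represented by their brightest probe set (mean log2 over arrays). Groups were compared over all 9361 genes with limma 3.58.1 in R 4.3.3 (lmFit, eBayes with an intensity trend, no covariates), with Benjamini-Hochberg adjustment; the script was tested on simulated data. The listed genes, roles and partner lists were chosen with earlier results of these data known. Named genes were all listed genes, the 10 largest called changes of chromosome 3 in each direction without overlap, up to 3 called genes per partner list (filled to 2 by the brightest), and the 2 brightest markers per list, of which some appear only in their list's sum. The deviations of same-numbered arrays had correlations of 0.45, 0.34 and 0.24 across genes, all above 0.1. Arrays of different number had correlations of -0.38 to 0.24. HML2 replicate 3 was as close to parental replicate 2 (0.2409) as to parental replicate 3 (0.2387), so the pairing of replicate 3 is unclear. The labels do not say what the number stands for, and the replicate number was used as a block only in an alternative. The other alternatives were offsets of 16 and 100, no signal limit or one of 200, quantile normalization, median centring over the tested genes, averaged probe sets, no trend, array weights and leaving out each array.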

Additional observations from a re-analysis of the deposited data

How the results depend on the processing

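The median of the listed genes ranged from 0.19 to 0.27 over the alternatives and the number above 0 from 33 to 40. Of the 52 genes, 31 were above 0 and 10 below 0 under each alternative run, and 11 changed sign, of which 1, Lmna, had been called (-0.10 with averaged probe sets). With the replicate number as a block 21 listed genes were higher, and of the partner genes 25 were higher and 19 lower. Over all genes this block gave 1670 higher and 1831 lower, next to 1155 and 1395 in the main fit. Array weights gave 26 higher and 7 lower listed genes, 39 higher and 25 lower partner genes, and 2422 higher and 2631 lower genes in all. Leaving out 1 array gave 7 to 18 higher and 2 to 5 lower listed genes, 6 to 22 higher and 5 to 13 lower partner genes, and 590.0 to 1577 higher and 795 to 1845 lower genes in all. The lowest counts over all genes were those without parental replicate 3, and leaving out HML2 replicate 3 gave 715 higher. With no signal limit 2 listed genes were lower, and chromosome 3 had a median of 0.029 with 54.8% above 0. With a limit of 200 these were 0.24 and 66.9%, with quantile normalization 0.23 and 66.3%, and with median centring 0.25 and 67.4%. The shares of all genes above 0 in the same order were 46.9%, 49.6%, 51.0% and 52.8%, next to 48.3% in the main setting. The chromosome 3 median was 0.19 with an offset of 100 and 0.19 with averaged probe sets (when 7 partner genes were higher). With 1 array left out it was 0.18 to 0.21, and the chromosome's share above 0 was 62.1% to 64.3%. Median centring moved the median of all genes to 0.025, next to -0.019. The causes of these movements were not tested. Nothing was measured in replicate outside these 6 arrays, and weak signals limit the genes near 100.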
